A study of Cavia porcellus with 10 samples.

Results

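Leukocyte lineage marker genes were followed through 3 reproductive stages of the guinea pig cervix. They are 42 genes chosen by name, namely 6 markers shared by most leukocytes or by the myeloid lineage, 1 gene of antigen presentation, 12 of macrophages, 7 of granulocytes, 3 of mast cells, 9 of T cells, 1 of cytotoxic cells and 3 of B cells. A row with that gene name was present for 36 of the 42 among the 25028 genes of the table, of which 20251 carry a name. The animals were Hartley guinea pigs, an outbred strain, and the vaginal portion of the cervix was taken as whole tissue. The non-pregnant females (NP, 3 animals) were in estrus, killed 1 day after the membrane that closes the vulva had gone. The mid-pregnancy animals (MT, 3 animals) were at 43.6 ± 0.5 days and the late pregnancy animals (LT, 4 animals), which were not in labor, at 65.2 ± 1.2 days (SD). Gestational age was estimated after death from the size and weight of the fetuses. No animal was treated, and each library came from 1 animal.

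Leukocytes share proteins that other cells of a tissue lack, among them the phosphatase CD45 encoded by PTPRC. Macrophages live in tissues, take up particles and dying cells through scavenger receptors, and make complement component C1q. Neutrophils carry the calgranulins S100A8 and S100A9 and the oxidase that generates superoxide, mast cells store proteases and bind immunoglobulin E, and lymphocytes signal through the CD3 complex in T cells or CD79 in B cells. Leukocytes are known to enter the cervix around birth, when the tissue softens and is then repaired. Several of the markers are also made outside the leukocytes: S100A8 and S100A9 by squamous epithelium, KIT by melanocytes and interstitial pacemaker cells, and CD74 by epithelium under interferon.

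The values are in TPM, the transcript abundance unit that relates reads to gene length and to the sum over all genes, so that levels can be compared between genes. The libraries held 20047660 to 27351763 reads on genes in NP, 18730665 to 25380420 in MT and 25804572 to 27881572 in LT. Changes were tested with limma on log2(TPM + 1) over 12645 genes with a stage mean of at least 3 TPM, and adjusted by the Benjamini-Hochberg method over all of them. Log2 fold changes (log2FC) are differences on this scale, which understates the change of genes near 1 TPM. Over all genes tested their median was -0.14 in the step from NP to MT, -0.16 from MT to LT and -0.28 for LT against NP. With edgeR's TMM normalization on the counts these medians were -0.03, 0.00 and -0.01. Replicate 1 of NP stood apart in tissue makeup, with 3478 TPM summed over 11 squamous epithelium genes, against 1104 and 1032 in the other NP animals, and 20975 TPM over 8 smooth muscle genes, against 8257 and 7064.

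Of the 36 genes with a row, 28 reached 3 TPM in at least 1 stage and were tested. Without a row of that name were FCER1G, MRC1, C1QA, C1QC, LYZ and CD8A, which are not analysed here. MPO, CD2, CD4, CD5, ZAP70, PRF1, MS4A1 and CD79B lay below 3 TPM in every stage. Through all 3 stages 21 genes passed, FCER1A, CD3E, CD3G and LCK passed through NP and MT, CD3D and CD79A through NP alone, and MARCO through LT alone. A gene that passed through the stage in which it is high was bound to differ more readily than the others, so the counts that follow describe the 28 genes tested and not the whole list.

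From NP to MT, 1 of the 28 genes rose, S100A9, and 2 fell, AIF1 and CPA3. In this comparison 6.27% of all genes tested rose and 12.2% fell. The median over the 28 genes was -0.50. From MT to LT, 7 rose, namely CD163, SIGLEC1, MARCO, C1QB, CSF3R, NCF4 and S100A8, against 6.73% of all genes tested, and KIT and CD3G fell, against 22.7%. The 7 that rose are all macrophage or granulocyte genes, and the median over the 28 was 0.13. From NP to LT, 7 rose (CD163, SIGLEC1, MARCO, C1QB, CSF3R, S100A8 and S100A9) against 11.2% of all genes, and 10 fell (PTPRC, LAPTM5, CORO1A, CD74, AIF1, KIT, CPA3, FCER1A, CD3G and LCK) against 41.9%, with a median of -0.47. The number that fell is close to the background share of falling genes. When the TPM were scaled between animals by the median ratio, 7 rose and 6 fell from NP to LT, against 24.7% and 25% of all genes, so that the share that rose was then that of all genes. With this scaling 8 rose and 2 fell from MT to LT, against 14% and 15.3%, and 1 rose and 2 fell from NP to MT, against 10.4% and 7.74%. Over the 3 stages together, 16 of the 28 differed by limma's F statistic, against 55.4% of all genes tested. Separation between animals was counted over the 36 genes with a row. All MT animals lay above all NP animals for 3 and below for 8, against 11.4% and 23.5% of all genes tested. LT animals lay above all MT animals for 8 genes and below for 2, against 10.8% and 35.5%, and above all NP animals for 7 and below for 4, against 11.8% and 40.6%. Whether a lower level of a marker in whole tissue came from fewer cells of a type or from less RNA per cell cannot be told apart.

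**Figure D1:**
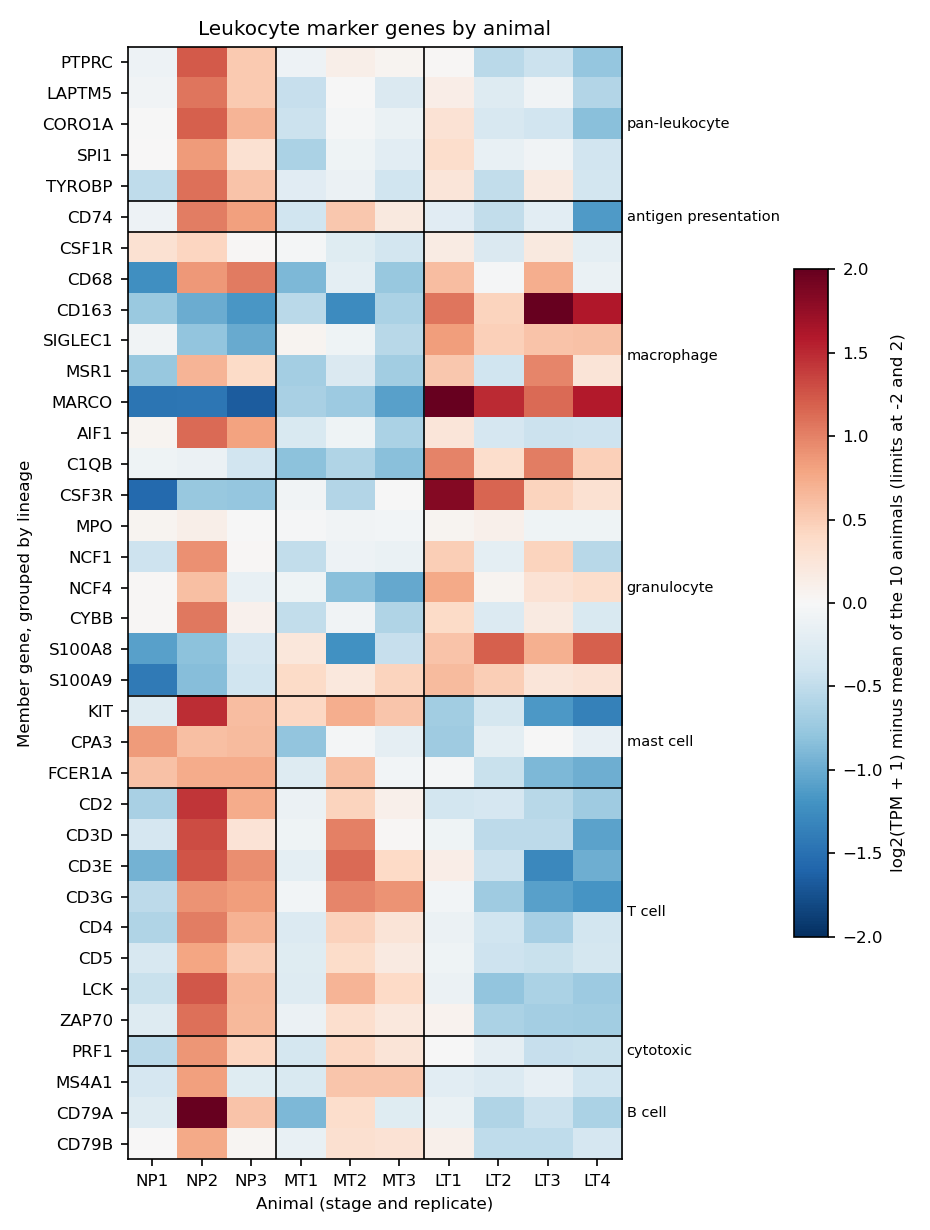
Colour shows, for the 36 genes with a row (vertical, by lineage) in each of 10 animals (horizontal), log2(TPM + 1) minus the mean of the 10 animals, with colours cut at -2 and 2. Macrophage and granulocyte genes such as CD163, MARCO, C1QB, CSF3R and S100A8 are red in LT, most lymphocyte genes are reddest in NP replicate 2, and NP replicate 1 is pale or blue for most genes.

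**Figure D2:**
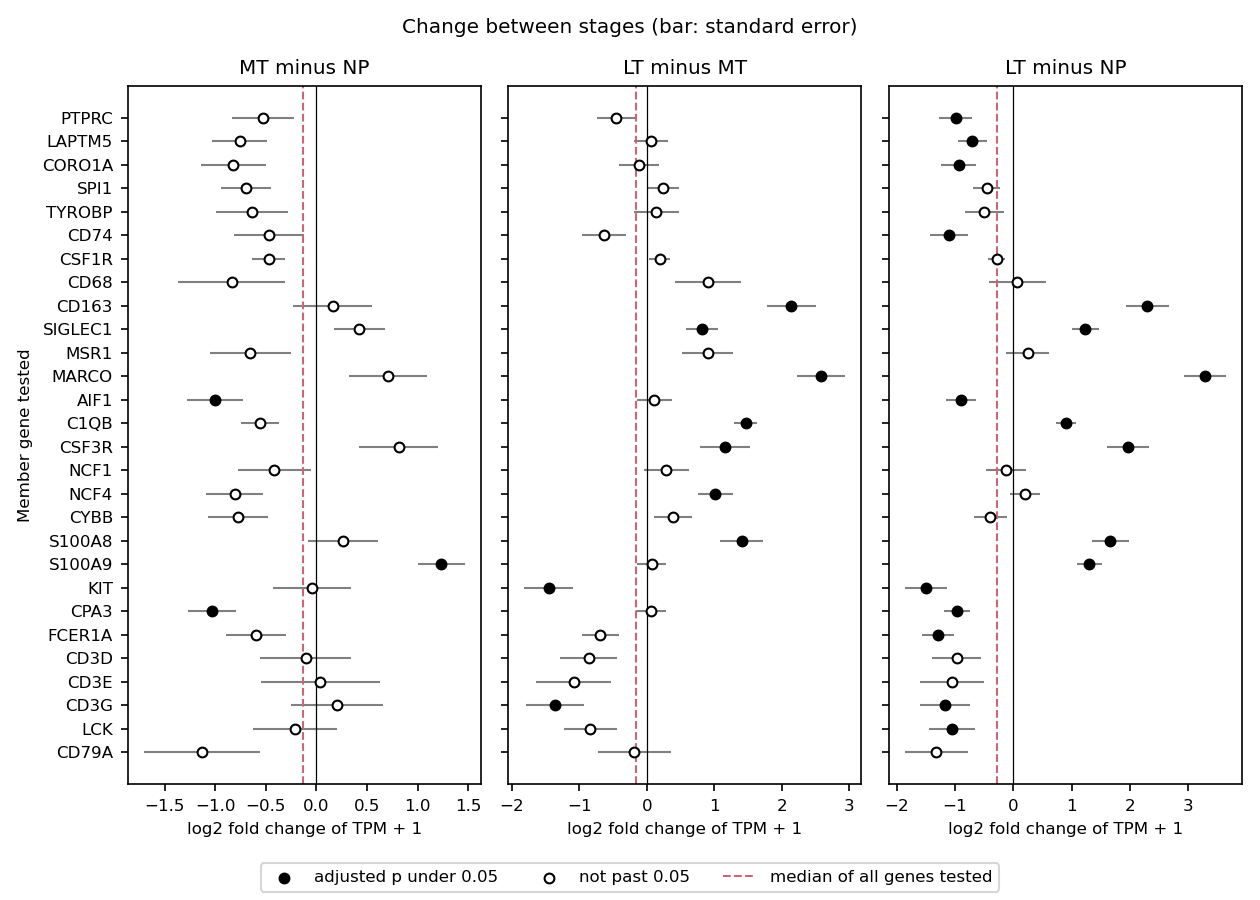
Points give the log2 fold change of TPM + 1 (horizontal) between stages for the 28 genes tested (vertical), bars the standard error, filled points an adjusted P under 0.05, and the dashed line the median of all 12645 genes tested. CD163, SIGLEC1, MARCO and C1QB lie right of 0 and are filled in both comparisons with LT, while KIT is filled left of 0 in both.

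Of the 5 genes tested that are shared across leukocytes or the myeloid lineage, PTPRC, LAPTM5 and CORO1A fell from NP to LT, where 41.9% of all genes fell, or 25% after median-ratio scaling. In the other comparisons limma over the 10 animals called none, while all 5 fell from NP to MT without NP replicate 1 and LAPTM5 fell there by DESeq2. PTPRC, the CD45 phosphatase of all nucleated blood cells, was at 8.72, 23.4 and 14.0 TPM in NP, 8.67, 10.3 and 9.88 TPM in MT and 9.57, 6.18, 6.73 and 5.08 TPM in LT, in the order of replicate number, here and throughout. The LT animals lay below the NP animals except that LT replicate 1 exceeded NP replicate 1. Its log2FC from NP to LT was -0.98 (SE 0.28, adjusted P = 0.0154), that from NP to MT -0.53 (SE 0.30, adjusted P = 0.242) and that from MT to LT -0.46 (SE 0.28, adjusted P = 0.244).

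LAPTM5, a lysosomal membrane protein of hematopoietic cells, stood at 53.0, 118 and 79.9 TPM in NP, 40.0, 55.1 and 45.4 TPM in MT and 61.1, 46.0, 52.9 and 36.8 TPM in LT. CORO1A, an actin-binding coronin of leukocytes, was at 17.8, 41.97 and 29.2 TPM in NP, 13.0, 17.3 and 16.3 TPM in MT and 22.01, 14.1, 13.4 and 9.56 TPM in LT. For both genes NP replicate 2 was the highest animal, and LT replicate 1 again exceeded NP replicate 1. From NP to LT log2FC was -0.70 (SE 0.25, adjusted P = 0.0396) for LAPTM5 and -0.94 (SE 0.30, adjusted P = 0.0243) for CORO1A. TYROBP, the adaptor of activating myeloid and NK cell receptors and the most abundant of the 5, was at 56.5, 174 and 119.5 TPM in NP, 68.5, 74.5 and 60.4 TPM in MT and 95.1, 57.0, 91.6 and 62.3 TPM in LT. Its stages overlapped, and from NP to LT its log2FC was -0.50 (SE 0.33, adjusted P = 0.229). SPI1, the myeloid transcription factor PU.1, had stage means of 33.9 ± 10.8, 20.1 ± 3.96 and 24.2 ± 5.59 TPM (SD, n = 3, 3 and 4, as for all stage means), with log2FC values of -0.70 (SE 0.25, adjusted P = 0.0744) from NP to MT and 0.24 (SE 0.23, adjusted P = 0.443) from MT to LT. The calls depended on single animals and on the processing. Without NP replicate 2 the adjusted P from NP to LT was 0.059 for PTPRC, 0.168 for LAPTM5 and 0.107 for CORO1A. That of LAPTM5 and CORO1A was also over 0.05 without NP replicate 3 (0.09 and 0.0671), LT replicate 3 (0.058 and 0.0529) or LT replicate 4 (0.0974 and 0.0601), with median-ratio scaling (0.15 and 0.068) and by edgeR (0.13 and 0.0686). For LAPTM5 it was over 0.05 as well without MT replicate 3 (0.055) or LT replicate 2 (0.0787), without a filter (0.0565), by DESeq2 (0.114) and in a model of only these stages (0.0628).

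CD74, the invariant chain that escorts MHC class II molecules and the only member of its group, was at 528, 1148 and 998 TPM in NP, 428, 826 and 648 TPM in MT and 481, 401, 487 and 258 TPM in LT. All LT animals lay below all NP animals, and the MT animals lay across both ranges. It fell from NP to LT with a log2FC of -1.10 (SE 0.32, adjusted P = 0.0171), while from MT to LT the value was -0.63 (SE 0.32, adjusted P = 0.162). Without NP replicate 2 or NP replicate 3 the adjusted P was 0.0764 and 0.0625.

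Among the 8 macrophage genes tested, 4 rose from MT to LT and also from NP to LT, namely CD163, SIGLEC1, MARCO and C1QB. MARCO was tested only through its level in LT, so its part in this count was favoured by the filter. Of all genes tested 6.73% rose from MT to LT and 11.2% from NP to LT, or 14% and 24.7% after median-ratio scaling. By limma over the 10 animals AIF1 alone fell, from NP to MT and from NP to LT. C1QB fell from NP to MT in a model of only these stages and without LT replicate 2, and CD68 and MSR1 did so without NP replicate 1. From MT to LT all 8 log2FC values were above 0, with a median of 0.90. CSF1R, CD68 and MSR1 were not called in any comparison by limma on the TPM of the 10 animals as deposited.

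MARCO, a scavenger receptor that binds bacteria and particles, had the largest log2FC of the 28 genes from MT to LT and from NP to LT, and it passed the filter through LT alone. It was at 0.151, 0.165 and 0 TPM in NP, 1.02, 0.923 and 0.494 TPM in MT and 21.6, 7.93, 5.98 and 8.56 TPM in LT. These values rest on 5, 4 and 0 reads in NP, 24, 22 and 16 in MT and 746, 293, 222 and 294 in LT. The 3 stages did not overlap, each later stage lying above the earlier. From MT to LT log2FC was 2.58 (SE 0.36, adjusted P = 0.0022), from NP to LT 3.29 (SE 0.36, adjusted P = 0.000169) and from NP to MT 0.70 (SE 0.38, adjusted P = 0.216). With edgeR on the counts the change from NP to MT passed as well (log2FC 2.98, adjusted P = 0.0347), on these few reads. LT replicate 1 was the highest LT animal, and without it the adjusted P from MT to LT was 0.00209.

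CD163, the scavenger receptor for haptoglobin-bound hemoglobin, was at 5.18, 4.19 and 3.59 TPM in NP, 6.11, 3.34 and 5.63 TPM in MT and 20.7, 13.0, 47.3 and 30.2 TPM in LT. NP and MT animals overlapped, and every LT animal lay above every animal of both. Its mean in LT was 5.53 times that in MT, with a log2FC of 2.14 (SE 0.36, adjusted P = 0.00395), and 2.301 (SE 0.36, adjusted P = 0.000766) from NP to LT. The LT animals were also the most spread, with an SD of 14.8 TPM about a mean of 27.8 TPM.

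C1QB, which encodes a chain of complement C1q, was the most abundant macrophage gene. Its levels were 91.7, 89.5 and 75.0 TPM in NP, 54.7, 64.0 and 54.3 TPM in MT and 195, 125, 199 and 136 TPM in LT. The MT animals lay below the NP animals and the LT animals above both, without overlap. From NP to MT log2FC was -0.56 (SE 0.18, adjusted P = 0.0611), from MT to LT it was 1.46 (SE 0.17, adjusted P = 0.00182) and from NP to LT 0.91 (SE 0.17, adjusted P = 0.00192). SIGLEC1, a sialic acid receptor of resident macrophages known as sialoadhesin, was at 5.18, 2.76 and 2.24 TPM in NP, 5.72, 5.13 and 3.41 TPM in MT and 10.6, 8.02, 8.60 and 8.75 TPM in LT. LT animals again lay above all others. The log2FC was 0.81 (SE 0.24, adjusted P = 0.0283) from MT to LT and 1.24 (SE 0.24, adjusted P = 0.00196) from NP to LT.

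AIF1, the calcium-binding protein IBA1 of macrophages, was at 31.0, 66.5 and 52.7 TPM in NP, 23.9, 28.0 and 19.0 TPM in MT and 35.7, 23.4, 21.8 and 22.3 TPM in LT. All MT animals lay below all NP animals, and in LT replicate 1 exceeded NP replicate 1 while the other 3 did not. It fell with a log2FC of -1.002 (SE 0.28, adjusted P = 0.0329) from NP to MT and of -0.89 (SE 0.26, adjusted P = 0.0159) from NP to LT. The receptor for macrophage growth factor CSF1R had stage means of 38.1 ± 5.35, 27.1 ± 3.19 and 31.2 ± 5.41 TPM. CD68, a lysosomal glycoprotein, had means of 58.9 ± 36.8, 26.9 ± 7.68 and 52.1 ± 15.8 TPM, and the scavenger receptor MSR1 15.2 ± 7.24, 8.59 ± 1.59 and 17.8 ± 7.09 TPM. From MT to LT log2FC was 0.19 (SE 0.15, adjusted P = 0.368) for CSF1R, 0.91 (SE 0.49, adjusted P = 0.183) for CD68 and 0.90 (SE 0.37, adjusted P = 0.0935) for MSR1. With edgeR the MSR1 change from MT to LT was 1.24 (adjusted P = 0.0394), and CD68 and MSR1 both rose from MT to LT by DESeq2, by limma on only these stages and by limma without NP replicate 1. MSR1 also rose in this step with median-ratio scaling and without LT replicate 2.

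The changes of MARCO, CD163 and C1QB from MT to LT, and of these and SIGLEC1 from NP to LT, passed under all 20 alternative settings, including those that left out each animal in turn. For SIGLEC1 from MT to LT the adjusted P was 0.0671 without MT replicate 2, 0.102 without MT replicate 3 and 0.0616, 0.0599 and 0.0591 without LT replicates 1, 3 and 4. For AIF1 from NP to MT it was 0.109, 0.0908, 0.0641 and 0.122 without NP replicate 2, NP replicate 3, MT replicate 1 and MT replicate 3, and for AIF1 from NP to LT it was 0.0724 and 0.0552 without NP replicate 2 and NP replicate 3. With limma on only the stages compared AIF1 had an adjusted P of 0.0747 from NP to MT, and by edgeR with its own filter 0.0541 from NP to LT.

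**Figure D3:**
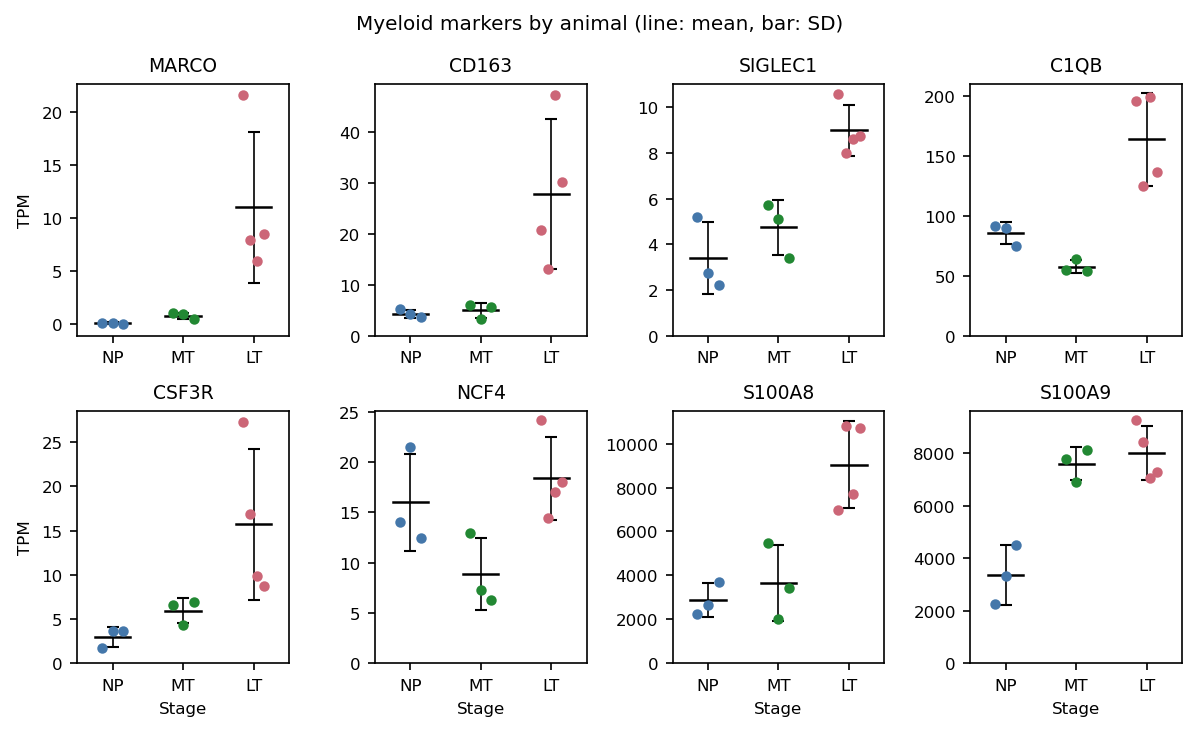
Dots are single animals, the vertical axis is TPM from 0, the line is the stage mean and the bar the SD (3 NP, 3 MT and 4 LT animals) for 8 macrophage and granulocyte genes. LT animals lie above all MT animals for each gene except S100A9, whose MT and LT animals overlap above the NP animals.

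Among the granulocyte genes, 3 of the 6 tested rose from MT to LT, namely CSF3R, NCF4 and S100A8, and by limma over the 10 animals none fell in any comparison. NCF4 fell from NP to MT without MT replicate 1, and CYBB did so without NP replicate 1. From MT to LT 6.73% of all genes tested rose and 22.7% fell, or 14% and 15.3% after median-ratio scaling. S100A9 rose from NP to MT. CSF3R, the receptor for granulocyte colony-stimulating factor, was at 1.70, 3.68 and 3.65 TPM in NP, 6.59, 4.30 and 6.91 TPM in MT and 27.3, 16.9, 9.85 and 8.78 TPM in LT. The stages did not overlap and rose in order, and the widest spread was in LT, where replicate 1 was highest. The log2FC was 0.81 (SE 0.39, adjusted P = 0.168) from NP to MT, 1.16 (SE 0.37, adjusted P = 0.0391) from MT to LT and 1.97 (SE 0.37, adjusted P = 0.00172) from NP to LT. By DESeq2 CSF3R also rose from NP to MT.

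S100A8 and S100A9 encode the calgranulins that pair as calprotectin, and they were the most abundant genes of the whole list. S100A8 was at 2216, 2661 and 3709 TPM in NP, 5489.8, 2022 and 3414 TPM in MT and 6993, 10799.8, 7697 and 10711 TPM in LT. LT animals lay above all NP and MT animals, which overlapped each other. S100A9 was at 2236, 3318 and 4514 TPM in NP, 7790.4, 6898 and 8109.5 TPM in MT and 9259.9, 8407, 7062 and 7294 TPM in LT. Here the MT and LT animals overlapped and all lay above the NP animals. S100A8 rose from MT to LT by a log2FC of 1.40 (SE 0.32, adjusted P = 0.0118) and had a value of 0.26 (SE 0.34, adjusted P = 0.615) from NP to MT, whereas S100A9 rose from NP to MT by 1.23 (SE 0.23, adjusted P = 0.00677) and had 0.07 (SE 0.22, adjusted P = 0.832) from MT to LT. The difference between the genes in these steps was not tested. Both rose from NP to LT, S100A8 by 1.67 (SE 0.32, adjusted P = 0.00212) and S100A9 by 1.30 (SE 0.22, adjusted P = 0.000956).

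Squamous epithelium also varied between the stages. The summed level of its 11 genes with a row was 3478, 1104 and 1032 TPM in NP, 1288, 172 and 425 TPM in MT and 1524, 2389, 2644 and 3024 TPM in LT. All LT animals lay above all MT animals in this sum, and the order of the animals in the sum was that of S100A8 in MT, its reverse in NP and a different order in LT. Most of the sum was KRT14, a keratin of the basal layer, which rose from MT to LT by 2.498 (SE 0.64, adjusted P = 0.0184). Of the 10 squamous genes tested, 5 fell from NP to MT with a median over the 10 of -2.41, 1 rose from MT to LT, and from NP to LT 1 rose and 5 fell. Of all genes tested 12.2% fell from NP to MT, 6.73% rose from MT to LT, and 11.2% rose and 41.9% fell from NP to LT. The part of squamous cells in the S100A8 and S100A9 levels was not tested.

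NCF4, a cytosolic subunit of the phagocyte oxidase, was at 14.1, 21.5 and 12.4 TPM in NP, 13.0, 7.31 and 6.30 TPM in MT and 24.2, 14.4, 17.0 and 18.0 TPM in LT. LT animals lay above all MT animals but overlapped the NP animals, and log2FC was 1.01 (SE 0.26, adjusted P = 0.0181) from MT to LT and 0.20 (SE 0.26, adjusted P = 0.528) from NP to LT. CYBB, the catalytic oxidase subunit, had stage means of 13.0 ± 6.05, 6.80 ± 1.61 and 9.29 ± 2.41 TPM, and NCF1, another cytosolic subunit, 9.23 ± 5.002, 6.17 ± 1.05 and 8.10 ± 3.01 TPM. Limma over the 10 animals called neither in any comparison, with log2FC values from MT to LT of 0.39 (SE 0.28, adjusted P = 0.308) and 0.29 (SE 0.34, adjusted P = 0.539). Levels of further granule genes ranged widely, and those named here other than MPO were chosen after their values were seen. MPO, the myeloperoxidase of neutrophil primary granules, did not exceed 0.165 TPM in any animal, the elastase gene ELANE 0.679 TPM and the eosinophil peroxidase gene EPX 1.67 TPM, and CTSG was at 0 in every animal. MMP8, the collagenase of neutrophil specific granules, reached 2.35 TPM, whereas LTF, another gene of specific granules, was far more abundant, as given with the further granulocyte genes. The change of CSF3R from NP to LT and both changes of S100A9 passed under all 20 alternatives. The change of CSF3R from MT to LT had an adjusted P of 0.0684, 0.143 and 0.0674 without MT replicates 1, 2 and 3 and of 0.0632 and 0.0861 without LT replicates 1 and 2, 0.0514 on the square root of TPM and 0.0617 without a filter, and that of NCF4 was 0.0732 and 0.0671 without MT replicates 2 and 3. With the replicate number as a block in limma, the adjusted P from MT to LT was 0.0641 for S100A8 and 0.064 for CSF3R, and NCF4 was not called.

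All 3 mast cell genes fell from NP to LT, where 41.9% of all genes fell, and in each the LT animals lay below every NP animal, as they did for 40.6% of all genes. FCER1A passed the filter through NP and MT and not through LT, which favours its fall. CPA3 fell from NP to MT and KIT from MT to LT, and the difference between these steps was not tested. KIT, the receptor for stem cell factor, was at 27.3, 92.3 and 50.6 TPM in NP, 44.0, 54.9 and 48.6 TPM in MT and 19.8, 25.4, 14.2 and 12.1 TPM in LT. NP and MT animals overlapped, with NP replicate 2 the highest, and all LT animals lay below both. For KIT log2FC was -0.04 (SE 0.39, adjusted P = 0.95) from NP to MT, -1.46 (SE 0.36, adjusted P = 0.0158) from MT to LT and -1.50 (SE 0.36, adjusted P = 0.00646) from NP to LT.

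CPA3, the carboxypeptidase of mast cell granules, was at 10.02, 8.24 and 8.47 TPM in NP, 2.54, 4.93 and 4.37 TPM in MT and 2.70, 4.30, 5.05 and 4.46 TPM in LT. MT and LT animals overlapped at levels below all NP animals. Its log2FC was -1.03 (SE 0.24, adjusted P = 0.0157) from NP to MT, 0.06 (SE 0.22, adjusted P = 0.856) from MT to LT and -0.97 (SE 0.22, adjusted P = 0.00497) from NP to LT. FCER1A, the subunit that binds immunoglobulin E, was at 4.84, 5.54 and 5.54 TPM in NP, 2.27, 4.88 and 2.74 TPM in MT and 2.78, 1.85, 1.09 and 0.967 TPM in LT. The MT animals spanned the gap between the NP and LT animals. From NP to LT log2FC was -1.29 (SE 0.28, adjusted P = 0.00358), and the steps from NP to MT and from MT to LT were -0.60 (SE 0.29, adjusted P = 0.177) and -0.69 (SE 0.28, adjusted P = 0.0842). All these falls from NP to LT and that of CPA3 from NP to MT passed under all 20 alternatives, and the fall of KIT from MT to LT had an adjusted P of 0.0611 without MT replicate 2.

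Lymphocyte genes were of low abundance, and their means were lowest in LT. For all 12 T cell, cytotoxic and B cell genes with a row, the LT mean lay below the MT mean and below the NP mean, and for 10 of 12 the MT mean lay below the NP mean. Of all genes tested 56.9% had an LT mean below both others and 67.5% an MT mean below the NP mean. The highest stage mean was 5.99 TPM. The reads behind each value ranged from 1 to 188 in NP, from 1 to 124 in MT and from 0 to 81 in LT. Of the 5 tested, CD3G fell from MT to LT and from NP to LT, and LCK fell from NP to LT, a share of 2 in 5 against 41.9% of all genes. CD3D and CD79A passed the filter through NP alone, and CD3E, CD3G and LCK through NP and MT. None of the 5 passed through LT, which favours falls to LT, so the count cannot be weighed against that share.

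CD3G, a chain of the CD3 complex of the T cell receptor, was at 1.43, 5.53 and 5.21 TPM in NP, 2.35, 5.87 and 5.54 TPM in MT and 2.37, 1.14, 0.639 and 0.537 TPM in LT. LT replicate 1 and MT replicate 1 were at like levels, and NP replicate 1 lay within the range of LT. The log2FC was 0.20 (SE 0.46, adjusted P = 0.778) from NP to MT, -1.36 (SE 0.43, adjusted P = 0.0377) from MT to LT and -1.16 (SE 0.43, adjusted P = 0.0423) from NP to LT. LCK, the kinase that starts T cell receptor signalling, was at 1.56, 7.29 and 4.52 TPM in NP, 1.92, 4.59 and 3.61 TPM in MT and 2.21, 1.02, 1.27 and 1.13 TPM in LT. Here too the lowest NP and MT animals, replicate 1 of each, lay within the LT range. From NP to LT log2FC was -1.05 (SE 0.39, adjusted P = 0.0435).

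CD3E, the most abundant T cell gene in NP, was at 1.26, 9.42 and 7.30 TPM in NP, 2.82, 8.58 and 4.79 TPM in MT and 3.78, 2.26, 0.795 and 1.22 TPM in LT. The stages overlapped, and from NP to LT log2FC was -1.05 (SE 0.55, adjusted P = 0.134). CD3D had stage means of 3.40 ± 2.59, 2.89 ± 1.76 and 1.07 ± 0.561 TPM and a value of -0.97 (SE 0.42, adjusted P = 0.0771). CD2, CD4, CD5 and ZAP70 had NP means from 0.889 to 2.27 TPM and LT means from 0.153 to 0.491 TPM. CD2, an adhesion receptor, was the T cell gene whose LT animals all lay below all MT animals.

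PRF1, which encodes the pore-forming perforin of cytotoxic cells, was at 0.391, 2.70 and 1.71 TPM in NP, 0.587, 1.67 and 1.42 TPM in MT and 1.003, 0.772, 0.466 and 0.478 TPM in LT. These values were too low for the limma test. CD79A, a signalling chain of the B cell receptor, was at 0.707, 8.95 and 2.03 TPM in NP, 0.0905, 1.61 and 0.725 TPM in MT and 0.866, 0.346, 0.517 and 0.310 TPM in LT. A single animal, NP replicate 2, held the high value, and the log2FC from NP to LT was -1.32 (SE 0.54, adjusted P = 0.0631). Its partner CD79B had stage means of 0.850 ± 0.585, 0.680 ± 0.287 and 0.222 ± 0.257 TPM, and MS4A1, the CD20 antigen, 0.496 ± 0.715, 0.651 ± 0.505 and 0.0998 ± 0.0754 TPM.

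With edgeR on the counts of 14263 genes, a test that does not need 3 TPM, 7 of the 8 genes outside the limma test could be tested and 3 of them fell from NP to LT, where 24.4% of all genes fell. They were CD2 (adjusted P = 0.0342), CD5 (0.0466) and ZAP70 (0.0403). In the other comparisons the lowest adjusted P among the 7 was 0.132, for MS4A1 from MT to LT. CD79A also fell from NP to LT by edgeR (adjusted P = 0.0368), while CD3G had 0.0677. The limma calls in T cell genes depended on the scaling, the filter and single animals. From NP to LT the adjusted P of CD3G and LCK was 0.074 and 0.0791 with median-ratio scaling, 0.0563 for each without a filter, and 0.0536 and 0.0576 in a model of only these stages. From MT to LT that of CD3G was 0.0538 without a filter. Without NP replicate 2 the adjusted P from NP to LT was 0.155 for CD3G and 0.183 for LCK, without NP replicate 3 0.143 and 0.118, without MT replicate 2 0.0519 and 0.0501, and without MT replicate 3 0.0551 and 0.0593. Without LT replicates 2, 3 and 4 it was 0.072, 0.0957 and 0.0981 for CD3G and 0.0932, 0.0829 and 0.0879 for LCK. For CD3G from MT to LT it was 0.137 and 0.115 without MT replicates 2 and 3 and 0.0693, 0.0912 and 0.0909 without LT replicates 2, 3 and 4.

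**Figure D4:**
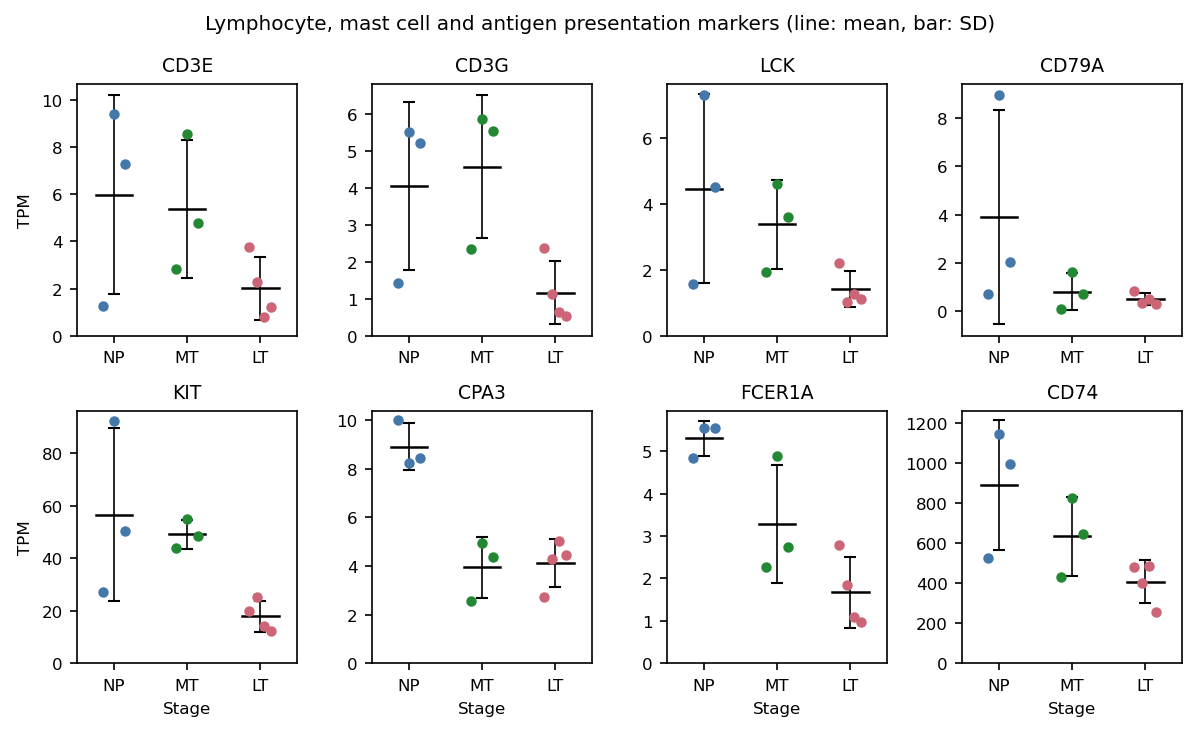
Dots are single animals, the vertical axis is TPM from 0, the line is the stage mean and the bar the SD (3 NP, 3 MT and 4 LT animals) for T cell (CD3E, CD3G, LCK), B cell (CD79A) and mast cell (KIT, CPA3, FCER1A) genes and CD74. LT animals lie below all NP animals for KIT, CPA3, FCER1A and CD74, while the T cell and B cell genes overlap between stages and spread most in NP.

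Animals of 1 stage differed in a like way across many of the genes. Among the 36 genes with a row, NP replicate 2 was the highest NP animal for 29 and NP replicate 1 the lowest for 28. MT replicate 2 was the highest MT animal for 27 and MT replicate 1 the lowest for 22, and LT replicate 1 was the highest LT animal for 24. For all 12 lymphocyte genes NP replicate 2 was highest and NP replicate 1 lowest, and likewise MT replicate 2 was highest and MT replicate 1 lowest. The ratio of NP replicate 2 to NP replicate 1 in these 12 genes ranged from 3.07 to 27.3 with a median of 7.19, and that of MT replicate 2 to MT replicate 1 from 1.81 to 17.8 with a median of 2.81. These 12 genes share the libraries and are not independent measurements of an animal. How often these animals were highest or lowest over all genes was not counted, so the order is not shown to be particular to leukocyte genes.

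The lowest NP animal for most leukocyte genes is the one with the high squamous and smooth muscle sums, and the part of that tissue makeup was not tested. Without NP replicate 1, 11 of the 28 genes fell from NP to MT, where 3261 of the 12645 genes fell, namely PTPRC, LAPTM5, CORO1A, SPI1, TYROBP, CD68, MSR1, AIF1, CYBB, CPA3 and CD79A, and SIGLEC1 rose beside S100A9. From NP to LT 15 fell without this animal, where 6297 of all genes fell, and the same 7 rose. The leukocyte genes counted as lower in MT than in NP ranged from 2 with the animal to 11 without it.

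Ratios to PTPRC set the level of a gene against that of a leukocyte gene in the same animal, and were chosen after the values were seen. S100A8, S100A9, KIT and CD74 are also made outside the leukocytes, and the part of other cells in the ratios was not tested. Relative to PTPRC, all LT animals lay above all MT animals for 18 of the 35 other genes with a row, where 17.7% of all genes tested did so. They comprised all 4 of the other genes shared across leukocytes, all 8 macrophage genes and 6 of the 7 granulocyte genes, the exception being MPO. All LT animals lay below all MT animals for 4 genes, KIT, CD2, CD3D and CD3G, where 5.19% of all genes did so. Against NP the LT animals lay above for 15 genes, where 28.8% of all genes did so. All of these ratios share PTPRC as their denominator.

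The ratio of C1QB to PTPRC was 10.5, 3.83 and 5.34 in NP, 6.30, 6.21 and 5.496 in MT and 20.4, 20.2, 29.6 and 26.8 in LT. For CD163 the ratio was 0.594, 0.179 and 0.256 in NP, 0.705, 0.324 and 0.570 in MT and 2.16, 2.11, 7.03 and 5.95 in LT. Both ratios in LT lay above every NP and MT animal. The ratio of CD68, which limma on the deposited TPM of the 10 animals called in no comparison, was 1.93, 3.21 and 6.04 in NP, 2.47, 3.46 and 2.40 in MT and 6.59, 6.47, 10.1 and 7.32 in LT, with LT above all other animals. That of CD74 was 60.5, 49.1 and 71.1 in NP, 49.4, 80.1 and 65.6 in MT and 50.3, 64.9, 72.4 and 50.7 in LT, and its stages overlapped. For CD3E the ratio was 0.145, 0.403 and 0.520 in NP, 0.325, 0.832 and 0.485 in MT and 0.395, 0.366, 0.118 and 0.240 in LT, with overlap between LT and both other stages.

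**Figure D5:**
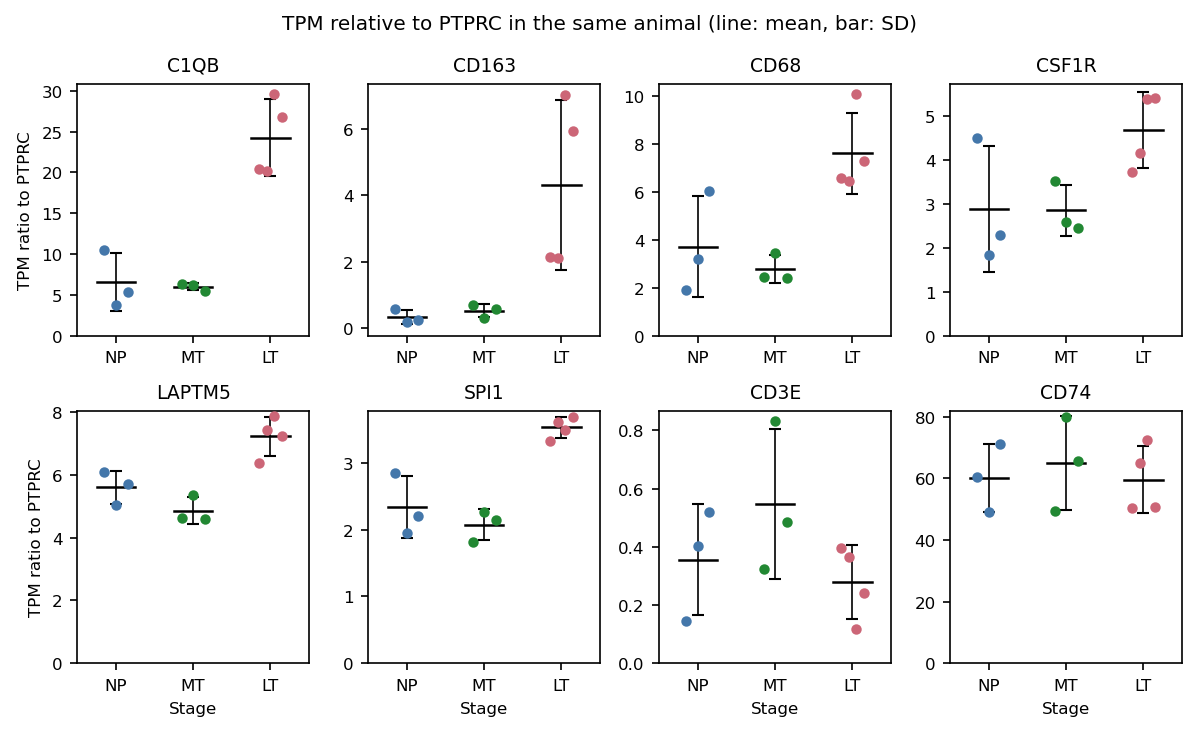
Dots give the TPM of a gene divided by the TPM of PTPRC in the same animal (vertical axis, from 0, no unit), the line the stage mean and the bar the SD (3 NP, 3 MT and 4 LT animals). LT animals lie above all MT animals for the macrophage genes C1QB, CD163, CD68 and CSF1R and for LAPTM5 and SPI1, while CD3E and CD74 overlap between stages.

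C1QB was also set against CSF1R, another macrophage gene. Their ratio in the same animal was 2.34, 2.09 and 2.33 in NP, 1.79, 2.41 and 2.24 in MT and 5.498, 4.86, 5.496 and 4.96 in LT. The LT animals lay above all others, while NP and MT animals overlapped. Likewise the ratio of CD163 to CD68 was 0.308, 0.0557 and 0.0423 in NP, 0.286, 0.0935 and 0.237 in MT and 0.327, 0.326, 0.695 and 0.813 in LT, and LT animals lay above all NP and MT animals.

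A second list of 121 leukocyte genes, of which 90 had a row and 59 were tested, extended the same lineages. From NP to MT 1 rose and 4 fell, from MT to LT 7 rose and 5 fell, and from NP to LT 8 rose and 21 fell, with medians of -0.45, -0.14 and -0.56. Of all genes tested 6.27% rose and 12.2% fell in the first of these comparisons, 6.73% and 22.7% in the next, and 11.2% and 41.9% from NP to LT, and the counts of the single lineages are to be read against the same shares. Among its 16 macrophage genes tested, 5 rose from MT to LT and none fell, and from NP to LT 4 rose and 4 fell. The medians over the 16 were 0.32 from MT to LT and -0.04 from NP to LT. LYVE1, a hyaluronan receptor of lymphatic vessels and some resident macrophages, had stage means of 24.0, 29.7 and 78.7 TPM and rose from MT to LT by 1.36 (SE 0.16, adjusted P = 0.00182). VSIG4, a complement receptor of resident macrophages, had means of 3.91, 6.86 and 17.7 TPM and a log2FC from MT to LT of 1.25 (SE 0.26, adjusted P = 0.00751). The lipopolysaccharide coreceptor CD14 had means of 23.8, 28.6 and 68.6 TPM and a log2FC from MT to LT of 1.15 (SE 0.26, adjusted P = 0.0107). By contrast CCR2, the chemokine receptor of blood monocytes, fell with a log2FC of -1.14 (SE 0.33, adjusted P = 0.038) from NP to MT and -1.60 (SE 0.31, adjusted P = 0.00198) from NP to LT, with means of 15.7, 6.51 and 4.80 TPM.

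Of the 6 further genes of antigen presentation tested, 5 fell from NP to LT and 1 rose. CIITA, the activator of MHC class II genes, fell with a log2FC of -1.15 (SE 0.21, adjusted P = 0.00175). ZBTB46 and CLEC9A, which mark dendritic cells, fell with -1.56 (SE 0.22, adjusted P = 0.000434) and -1.93 (SE 0.31, adjusted P = 0.000811), and FLT3, a growth factor receptor of their precursors, with -1.27 (SE 0.27, adjusted P = 0.0038). LAMP3, a lysosomal protein of mature dendritic cells that some epithelia also make, rose by 3.31 (SE 0.43, adjusted P = 0.000326), from 2.74, 9.14 and 18.6 TPM in NP to 93.2, 110.5, 77.8 and 77.1 TPM in LT.

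In the further mast cell list 3 of 4 tested fell from NP to LT. MS4A2, the beta chain of the immunoglobulin E receptor, fell in every comparison, from 13.7, 13.2 and 8.90 TPM in NP through 6.37, 8.37 and 5.79 TPM in MT to 4.58, 4.65, 4.52 and 3.16 TPM in LT, with -0.71 (SE 0.20, adjusted P = 0.0371) from NP to MT and -0.58 (SE 0.19, adjusted P = 0.0434) from MT to LT. HDC, which makes histamine, fell from NP to LT with a log2FC of -1.06 (SE 0.24, adjusted P = 0.00505) and the transcription factor GATA2 with -0.88 (SE 0.26, adjusted P = 0.0178). HPGDS, a prostaglandin D synthase that macrophages also make, rose from MT to LT by 1.74 (SE 0.38, adjusted P = 0.00979).

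Among the further granulocyte genes, LTF, the lactoferrin of granules and of glandular epithelium, was at 58.1, 631 and 1254 TPM in NP, 3359, 2687 and 2738 TPM in MT and 6885, 6679.6, 1804 and 1535 TPM in LT. In LT it was split, with replicates 1 and 2 above and replicates 3 and 4 below every MT animal. LTF rose from NP to LT by 3.22 (SE 0.94, adjusted P = 0.0161) and had 0.21 (SE 0.94, adjusted P = 0.891) from MT to LT, and the histone deiminase PADI4 rose from NP to LT by 2.301 (SE 0.74, adjusted P = 0.0252) and had 2.04 (SE 0.74, adjusted P = 0.0632) from MT to LT. The columnar epithelium list was also higher in pregnancy, with 5 genes summing to 569, 634 and 644 TPM in NP, 1505, 1016 and 1661 TPM in MT and 1143, 1137, 909 and 989 TPM in LT, and 2 of its 4 genes tested rose from NP to MT and from NP to LT. Of all genes tested 6.27% rose from NP to MT and 11.2% from NP to LT. The part of the glands in the LTF level was not tested. Of the 4 T cell genes tested, LAT, an adaptor of T cell receptor signalling, fell from NP to LT with a log2FC of -1.49 (SE 0.28, adjusted P = 0.00194), and of the 3 cytotoxic genes tested KLRK1 fell with -1.30 (SE 0.48, adjusted P = 0.0422). Limma called neither of the 2 B cell genes tested in any comparison. Of the 20 further genes shared across leukocytes, 7 fell from NP to LT and none rose, with a median of -0.54. In the endothelial list all 7 genes tested fell from NP to LT and 6 fell from MT to LT. Of all genes 41.9% and 22.7% fell in these comparisons, or 25% and 15.3% after median-ratio scaling. The summed levels of the endothelial list were between 147 and 202 TPM in NP, between 107 and 156 TPM in MT and between 58.1 and 94.3 TPM in LT. The part of the blood vessels was not tested. The 5 erythrocyte genes with a row summed to at most 2.42 TPM in any animal. The 4 platelet genes with a row summed to 597, 616 and 609 TPM in NP, 159, 82.2 and 71.8 TPM in MT and 339.5, 469, 177 and 102 TPM in LT, nearly all of it PPBP, a chemokine of platelet granules. Both platelet genes tested, PPBP and ITGA2B, fell from NP to MT and from NP to LT, where 12.2% and 41.9% of all genes fell. The part of blood cells in the leukocyte levels was not tested.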

How the data were processed

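Cervical tissue of 10 Hartley guinea pigs was sequenced by the authors as strand-specific poly(A) libraries of single reads, 1 animal per library. Per the labels and the study's methods, the authors processed reads with CASAVA 1.8.2, aligned them with TopHat2 to the guinea pig genome cavPor3 and made read counts per Ensembl gene with HTSeq 0.5.4p1. The strand option of the counting is not given in the sources used here, so overlapping antisense genes could share reads. The deposited TPM values were derived by the authors from these counts, and sum to the same total in each animal. The gene length used is not given in the sources used here. Both were used as deposited, and no column of the table was left out. Replicates are different animals.

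Groups came from the stage in the labels. Changes were tested two-sided with limma 3.58.1 (trend) in R 4.3.3 on log2(TPM + 1), in 1 model over the 10 animals with stage as the only term, for genes whose mean reached 3 TPM in some stage. P-values were adjusted over all genes tested by the Benjamini-Hochberg method, with a threshold of 0.05. Every adjusted P is from limma unless edgeR (4.0.16, quasi-likelihood, TMM) or DESeq2 (1.42.0) on the counts is named. The tests were checked on simulated data. Alternatives were a pseudocount of 0.1, the square root of TPM, no filter, a filter of 1 TPM, median-ratio scaling, edgeR, DESeq2, a model of only the stages compared, the replicate number as a block, and leaving out each animal in turn. An edgeR test of all genes kept by its own filter was added after the values were seen, as were the ratios to PTPRC and between genes.

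The genes, the further lists and the alternatives were chosen with earlier results of these data known, so they give no independent support to a pattern already seen. Values of every animal are given for genes with an adjusted P under 0.05 in any comparison and for the most abundant gene of each lineage. The others are given by means, ranges or counts, and of each further list at most 5 genes are named, those with the lowest adjusted P, beside ELANE, MMP8, EPX and CTSG, named after their values were seen. For 1 gene of the further lists no values are reported here. Gene names are those of the table, and a gene without a row of its name was not looked for under another. The precision is limited by the number of animals and, for genes of few reads such as those of lymphocytes, by the reads.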

Additional observations from a re-analysis of the deposited data

Results flagged for a closer look

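In LT, the only stage with 4 animals, the highest or lowest animal was compared with the others for the 36 genes with a row by Dixon's ratio, the gap to the nearest animal over the whole range. In 3 genes the ratio passed the critical value, each time because LT replicate 1 lay above the other LT animals. MARCO was at 21.6, 7.93, 5.98 and 8.56 TPM in LT, with a ratio of 0.835. AIF1 was at 35.7, 23.4, 21.8 and 22.3 TPM, with a ratio of 0.89, and ZAP70 at 1.13, 0.312, 0.263 and 0.258 TPM, with a ratio of 0.938. Chance passes this value in about 1 of 20 groups, and the 36 genes share the libraries. Without LT replicate 1, MARCO still rose from MT to LT (limma, adjusted P = 0.00209) and from NP to LT (adjusted P = 0.000141).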

How the results depend on the processing

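No called change turned in direction. Over 29 changes of single genes and 20 alternatives each, 496 of the 580 values passed the test as well and 84 did not, and 15 changes passed in all. These were S100A9 and CPA3 from NP to MT, CD163, MARCO and C1QB from MT to LT, and from NP to LT the 7 that rose with KIT, CPA3 and FCER1A. The count that rose from NP to MT was 2 with a pseudocount of 0.1, with edgeR and with edgeR's own filter, and 3 with DESeq2, against 1. Without a filter 1 gene fell from MT to LT, against 2. With median-ratio scaling 6 fell from NP to LT, against 10. Leaving out 1 animal at a time gave 11 to 25 genes that differed over the 3 stages, 1 to 2 that rose and 1 to 11 that fell from NP to MT, 4 to 9 that rose and 0 to 3 that fell from MT to LT, and 3 to 15 that fell and 7 in each case that rose from NP to LT. The highest counts were reached without NP replicate 1, and the 3 that fell from MT to LT also without LT replicate 1. Between NP and LT, 3 fell without NP replicate 2, 4 without NP replicate 3 and 6 without LT replicate 3 or LT replicate 4. Between NP and MT 1 fell without NP replicate 2, NP replicate 3 or MT replicate 3. Between MT and LT 1 fell without MT replicate 3 or LT replicate 2, 3 or 4, and 0 by limma without MT replicate 2, where 2 had an unadjusted P under 0.05. Without MT replicate 3 or MT replicate 2, 4 rose from MT to LT. The sources used here do not say that the same replicate number marks a shared day, and the correlations of same-numbered animals ran from -0.29 to 0.25, with 3 of 9 over 0.1. With the number as a block, in which LT replicate 4 has no partner and adds nothing, 4 rose and 1 fell from MT to LT, 4 fell from NP to LT and 1 fell from NP to MT. Over all genes, the calls from NP to MT numbered 2342, but 1113 in a model of only these stages, 4174 without NP replicate 1, 1450 without NP replicate 2 and 1100 without MT replicate 3. Between MT and LT they numbered 3723, but 1693 with the block, 1946 without MT replicate 2 and 2403 without LT replicate 3. The cause of these shifts was not tested. Depth limits the lymphocyte genes, at 0 to 81 reads a gene in LT, as well as MPO and, in NP, MARCO.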

Other observations

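Ratios between further pairs of genes within an animal gave values that belong to no comparison above. The ratio of S100A8 to S100A9 was 0.991, 0.802 and 0.822 in NP, 0.705, 0.293 and 0.421 in MT and 0.755, 1.28, 1.09 and 1.47 in LT, with all MT animals below all NP animals. The ratio of KIT to CPA3 was 2.72, 11.2 and 5.97 in NP, 17.3, 11.1 and 11.1 in MT and 7.34, 5.90, 2.82 and 2.72 in LT, where MT animals lay above all LT animals. The ratio of CD79A to CD3E was 0.561, 0.951 and 0.278 in NP, 0.0321, 0.188 and 0.151 in MT and 0.229, 0.153, 0.650 and 0.255 in LT, and all MT animals lay below all NP animals. This order rests on few reads, for CD79A 11, 102 and 26 in NP and 1, 18 and 11 in MT. These pairs were chosen after the values were seen and were not tested.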
